A study of Homo sapiens with 14 samples.

Results

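The cytosolic ribosomal protein genes encode the proteins of the large and the small subunit of the ribosome that translates nuclear mRNAs. They were taken by symbol from RNA-seq count tables of IMR90 cells, an established line of human primary lung fibroblasts. Of 54628 symbols listed, 84 have a ribosomal protein name (RPL or RPS with a number, or RPLP0, RPLP1, RPLP2 or RPSA), and 76 of these averaged 1 CPM or more across the 14 libraries. The members were thus chosen by name and by this mean level. CPM is a gene's count scaled to 1000000 gene counts in its library. The 76 genes comprise 47 of the large and 29 of the small subunit. RPS9 at a mean of 1.337 CPM, RPS10 at 2.368 CPM and RPL17 at 4.255 CPM lay just inside the level, and RPL39L at 0.755 CPM lay just outside it. The other 7 symbols under the level, among them RPL36A, RPS18, RPS25, RPL7A, RPL3L and RPL10L, had 0.01614 to 0.31 CPM. RPL39L, RPL3L and RPL10L are paralogs with tissue-restricted use, whereas RPS18, RPS25 and RPL7A encode core proteins of every ribosome. They enter no comparison, because 21 to 205 counts each were listed for them over all 14 libraries.

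The libraries fall into 7 groups of 2. WT cells were untreated, and siHMGB2 cells were untreated cells with HMGB2, a chromatin protein, knocked down by siRNA. ICM cells were treated for up to 6 days with inflachromene (ICM) at 10 µM to induce senescence, a lasting arrest of division. Inflachromene is known to bind HMGB proteins. The labels name no sets. The 2 treated sets used below were inferred from the titles, whose form differs for ICM 3, ICM 4 and siCTCF. Libraries ICM 1 and 2 were placed in a first set with those labelled siSRRM2 and siBANF1. Libraries with these 2 labels carry the same treatment plus a knockdown of the speckle protein SRRM2 or of the nuclear envelope factor BANF1. Libraries ICM 3 and 4 were placed in a second set with siCTCF, in which ICM-treated cells had the architectural protein CTCF knocked down. All cells are IMR90 by title, grown from isolates at passage 5 that the labels do not tie to single libraries. For the 4 libraries of the second set the cell line field reads IMR91 to IMR94. The labels name no control siRNA and do not say whether the libraries of a group come from separate cultures, so p-values measure the spread between these libraries, which may be technical. The deposited design asked how senescence and the knockdowns change expression and splicing.

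Each ribosome carries a single copy of nearly every ribosomal protein, so cells make these proteins in matched amounts. Their mRNAs are among the most abundant in dividing cells, and most begin with a cytosine followed by a run of pyrimidines, the 5′ TOP motif, through which mTOR signalling and LARP1 control their translation as a group. Several members have tasks outside the ribosome: free RPL5 and RPL11 bind MDM2 and thereby stabilise p53, and RPS6 is the classical substrate of S6 kinase. Senescent cells are known for altered ribosome production.

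Gene counts per library ran from 22336161 to 58257456. Small RNA genes held 3.232% to 6.124% of gene counts in the 6 ICM-treated libraries of the first set and 0.005312% to 0.008492% in the other 8, and reads that were not unique were 14.46% to 20.67% against 7.147% to 8.51%. ICM 1 and siBANF1 1 stood apart from their own replicates, with 16.35% and 18.44% of reads in no annotated feature against 4.732% and 5.164% in ICM 2 and siBANF1 2. HMGB2 measured 27.68 and 28.01 CPM in WT but 3.178 and 3.522 CPM in siHMGB2. CTCF measured 94.87 and 91.92 CPM in the ICM libraries of its set but 71.5 and 22.97 CPM in siCTCF 1 and 2. SRRM2 was lowest under the siBANF1 label (58.98 and 17.01 CPM), ahead of the siSRRM2 label (76.05 and 76.42 CPM). BANF1 was not lower under the siBANF1 label (16.96 and 36.72 CPM) than in ICM 1 and 2 (13.52 and 32.72 CPM), and the submitters' names for the deposited tables of these 4 libraries carry the opposite knockdown. Both names are therefore used only as labels, and no direction drawn from either comparison can be assigned to a knocked-down gene. All 10 fibroblast markers were detected (2297 to 47020 CPM in sum). The 5 epithelial markers summed to at most 0.7287 CPM, with SFTPC, SFTPB and KRT5 at 0 in every library, and the 3 endothelial markers to at most 1.725 CPM. Of the leukocyte markers CD3E was at 0 and PTPRC reached 0.08939 CPM, while CD68 reached 103.8 CPM. The part of library composition in any result below was not tested.

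The start of each gene was read from RefSeq (GRCh38.p14), whose table of promoter windows held 62 of the 76 members. A C at the annotated start followed by at least 4 pyrimidines, the pattern of a TOP mRNA, was present in 39 of 62 members (62.9%), in 4.04% of all 27305 windows of the table and in 4.63% of those of protein-coding genes. The 8 windows below belong to the genes on which the later results turn. Each holds 30 bases, 15 before the annotated start and 15 from it onward, and capitals mark the unbroken run of pyrimidines that contains the start base, where there is one of at least 5.
RPL3 (chr22:39319609-39319638, minus strand): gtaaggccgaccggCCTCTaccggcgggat
RPL12 (chr9:127451392-127451421, minus strand): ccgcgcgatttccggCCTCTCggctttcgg
RPL28 (chr19:55385917-55385946, plus strand): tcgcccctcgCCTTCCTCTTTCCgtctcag
RPS16 (chr19:39435935-39435964, minus strand): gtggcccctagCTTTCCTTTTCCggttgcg
RPLP1 (chr15:69452803-69452832, plus strand): gtataggcgcgagagCCCCTTTCCTCagct
RPL4 (chr15:66504841-66504870, minus strand): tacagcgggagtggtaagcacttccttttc
RPS26 (chr12:56041903-56041932, plus strand): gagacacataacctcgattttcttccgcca
RPL7L1 (chr6:42879601-42879630, plus strand): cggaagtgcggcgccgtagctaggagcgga

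RPL12, RPL28, RPS16 and RPLP1 start within runs of 6, 13, 12 and 11 pyrimidines, and RPL3 within a run of 5 that ends too early for the pattern above. No such run holds the annotated start of RPL4, RPS26 or RPL7L1, although the RPL4 and RPS26 windows carry pyrimidines further downstream, and a different start in these cells cannot be seen in gene counts. In the same RefSeq windows of 250 bases before to 50 after the start, searched on both strands, the ETS core CCGGAAG was found in 33.9% of the 62 members, 10.7% of all windows and 14.4% of the 15326 windows of protein-coding genes. AAGATGGC, the core of the YY1 motif, was found in 11.3%, 3.03% and 3.99%. GGGCGG, the SP1 box, was found in 53.2%, 44.6% and 59.0%, so the members lay above all windows but below those of protein-coding genes. TATAAA was found in 8.06%, 12.0% and 9.61%. Read on the other strand, the ETS core is CTTCCGG, which begins with pyrimidines and can overlap the run at the start. A match describes letters and is not evidence of binding. Members also host other genes: 27 of the 76 hold 56 snoRNA genes within their bounds, per GENCODE v29.

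The family took 5.254% and 4.496% of gene counts in WT 1 and 2 and 4.429% and 4.316% in siHMGB2 1 and 2. In the first ICM set the share was 2.687% in ICM 1, 4.505% in ICM 2, 3.914% and 4.007% in the libraries labelled siSRRM2, and 2.491% and 4.959% in those labelled siBANF1. In the second set it was 4.434% and 3.546% in ICM 3 and 4 and 4.344% and 3.842% in siCTCF 1 and 2. ICM 1 and siBANF1 1 were thus the lowest of the 14 libraries. ICM 2 and siBANF1 2 lay above WT 2, and the other 8 treated libraries lay below both WT libraries. The means were 4.875% ± 0.536 (SD, n = 2) in WT, 3.596% ± 1.286 in ICM 1-2 and 3.99% ± 0.6279 in ICM 3-4. No test was made on the shares. In bulk RNA, fewer cells of a type and less RNA per cell cannot be told apart, and a share says nothing of the amount of ribosomal protein mRNA per cell.

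**Figure D1:**
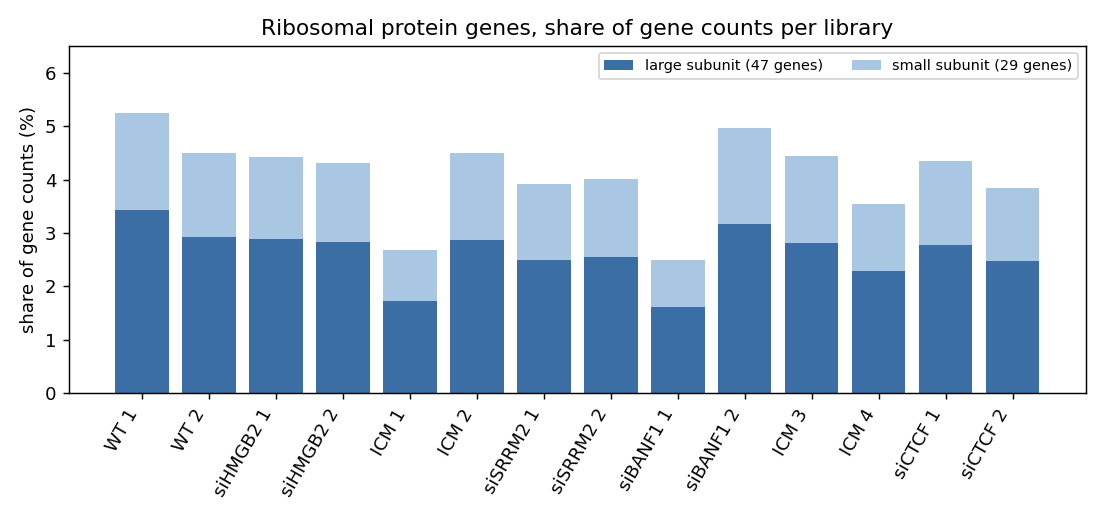
Share of all gene counts (%) held by the ribosomal protein genes in each of the 14 libraries, stacked by subunit (dark, 47 large-subunit genes; light, 29 small-subunit genes). ICM 1 (2.687%) and siBANF1 1 (2.491%) are the shortest bars and WT 1 (5.254%) is the tallest.

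The balance of the subunits moved far less than the total. Large-subunit genes held 1.745 to 1.901 times the counts of small-subunit genes in every library, although the family's own share ranged from 2.491% to 5.254%. The ratio was 1.882 and 1.878 in WT, 1.882 and 1.901 in siHMGB2, 1.782 and 1.767 in ICM 1 and 2, and 1.746 and 1.838 in ICM 3 and 4. All 10 ICM-treated libraries lay below all 4 untreated ones, the closest being siBANF1 1 at 1.844. This ratio of summed counts gives most weight to the most abundant genes. The median log2 fold change of large-subunit genes minus that of small-subunit genes was -0.042 in ICM 1-2 against WT but 0.103 in ICM 3-4 against WT. A lower ratio thus does not mean that large-subunit genes fell more as a group. Expressed per length, on 1 principal GENCODE v29 transcript per gene, the highest mean levels were those of RPS19 (1734 CPM per kb), RPS27 (1475) and RPL19 (1429), and the lowest were those of RPS9 (1.886), RPS10 (3.85) and RPL17 (6.36). The annotated transcripts run from 296 to 7686 bases, the longest with long 3′ ends, so the levels per length rest on these models. The levels of RPS9, RPS10 and RPL17 also rest on few counts (36 and 30, 8 and 6, and 35 and 51 in WT 1 and 2) and are uncertain.

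ICM 1-2 against WT asks how the first set of treated cells differed from untreated cells. Small RNA genes held 0.008331% and 0.00848% of gene counts in WT 1 and 2, against 6.124% and 3.232% in ICM 1 and 2. Treatment and library composition therefore cannot be told apart in this comparison. The 2 ICM libraries were not alike: 73 of 76 members were higher in ICM 2 than in ICM 1, with a median ratio of 1.669. The median log2 fold change against WT was -0.41 over the members and 0.09 over all 16617 genes tested, and 62 of 76 members were negative. No member and no other gene passed the edgeR quasi-likelihood test at an adjusted p under 0.05 (0.0% of genes). At an unadjusted p under 0.05 there were 12 members (15.8%) and 22.0% of all genes, and the Wald test of DESeq2 called 2 members higher and 5 lower (9.21%), beside 11.5% of all genes. In 34 of 76 members (44.7%) both ICM libraries lay below both WT libraries, compared with 27.6% of all genes, and in 2 members both lay above, compared with 29.6%.

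The lowest fold changes of this comparison belonged to RPS16, RPL28 and RPLP1. RPS16, whose tail contacts the tRNA in the small subunit, measured 579.4 and 485.5 CPM in WT against 74.91 and 171.0 CPM in ICM 1 and 2 (log2 fold change -2.21 with an SE of 0.46, adjusted p 0.105 by edgeR). RPL28, a large-subunit protein, measured 910.7 and 714.2 CPM in WT against 194.3 and 169.5 CPM (-2.20, SE 0.38, adjusted p 0.0948). RPLP1, of the stalk that recruits elongation factors, measured 809.5 and 673.3 CPM in WT against 230.5 and 278.9 CPM (-1.60, SE 0.34, adjusted p 0.107). These 3 genes are among the 34 of 76 members in which both ICM libraries lay below both WT libraries. Of the other stalk genes, RPLP0 measured 1609 and 1557 CPM in WT against 947.6 and 1323 CPM in the treated pair, with a log2 fold change of -0.54. RPLP2 measured 528.7 and 399.6 CPM against 254.4 and 319.5 CPM, with -0.75. Without ICM 1 the median over the members was -0.12 with 31 called (40.8%, all genes 62.1%), and without ICM 2 it was -0.78 with 63 called (82.9%, all genes 47.9%), so both the median and the count rested on which treated library was used.

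ICM 3-4 against WT compares the second set of treated cells with the same untreated libraries. Treatment and set cannot be told apart here, because both WT libraries lie outside the second set, and the comparison shares its WT libraries with the one above. The members fell more often than they rose: 23 of 76 were called lower (30.3%) and 4 higher (5.26%) at an adjusted p under 0.05, and the median log2 fold change was -0.44. Over all 15677 genes tested, 27.3% were called lower, 27.8% higher and 55.2% in either direction, with a median of 0.01. At an unadjusted p under 0.05 there were 32 members (42.1%) and 61.3% of all genes. The share called lower was therefore close to the background and the share called higher was below it. The called-lower members were 13 of 47 large-subunit genes (median of all 47, -0.44) and 10 of 29 small-subunit genes (median -0.54). With total-count scaling the median of all genes became 0.20 and that of the members -0.26, with 4 called higher and 14 lower, beside 32.8% and 23.1% of all genes. The count of 27 called members was 10 without WT 1, 13 without WT 2, 56 without ICM 3 and 31 without ICM 4. In those fits 33.0%, 28.8%, 63.2% and 62.7% of all genes were called, against 13.2%, 17.1%, 73.7% and 40.8% of the members.

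**Figure D2:**
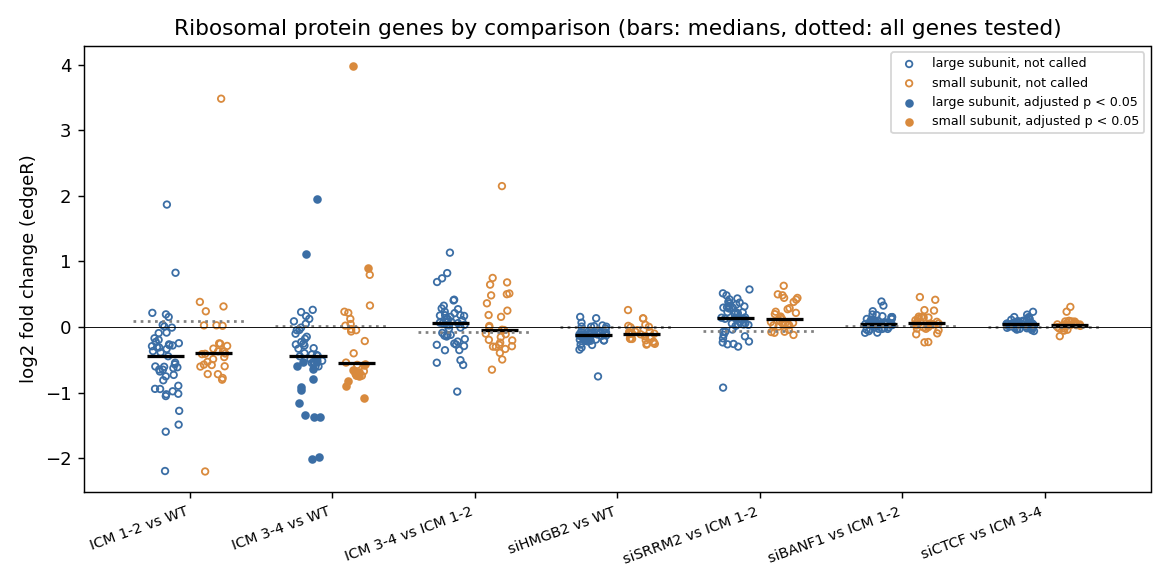
Log2 fold change (edgeR) of each ribosomal protein gene in the 7 comparisons, large subunit in blue and small subunit in orange. Filled points passed an adjusted p under 0.05, black bars are the subunit medians, and dotted lines are the medians over all genes tested. Filled points appear in ICM 3-4 vs WT alone, where 23 lie below and 4 above 0.

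RPL3, whose protein lies beside the peptidyl transferase centre, was among the 4 largest decreases. It measured 1554 and 1389 CPM in WT, 1422 and 1400 CPM in siHMGB2, 611.3 and 458.6 CPM in ICM 1 and 2, and 465.3 and 364.6 CPM in ICM 3 and 4. In ICM 3-4 vs WT it was 4.02-fold lower (log2 fold change -2.01 with an SE of 0.22, adjusted p 0.00118 by edgeR). The other ICM-treated libraries held 380.0 to 621.6 CPM, so all 10 treated libraries lay below all 4 untreated ones, by more than the spread within either.

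RPL12, of the base of the stalk, measured 680.3 and 590.3 CPM in WT, 632.9 and 593.1 CPM in siHMGB2, 340.5 and 304.1 CPM in ICM 1 and 2, and 201.2 and 164.6 CPM in ICM 3 and 4. Its log2 fold change in ICM 3-4 vs WT was -1.98 (SE 0.20, adjusted p 0.000996, edgeR). siCTCF 1 and 2 held 205.0 and 169.5 CPM, near ICM 3 and 4, and the libraries labelled siSRRM2 and siBANF1 held 275.0 to 341.9 CPM, near ICM 1 and 2, so the 10 treated libraries formed 2 levels that followed the set. Both RPL3 and RPL12 are known to be tuned through alternative splicing to transcripts that are degraded, which gene counts do not resolve.

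RPL10A, the protein of the L1 stalk, fell from 682.5 and 576.6 CPM to 304.1 and 245.4 CPM (-1.38, SE 0.21, adjusted p 0.00309). RPL29 fell from 728.2 and 614.2 CPM to 323.9 and 263.3 CPM (-1.38, SE 0.21, adjusted p 0.00308). RPL28 followed at -1.35 (adjusted p 0.00495), with 408.5 and 315.2 CPM. RPL23, at -1.16 (adjusted p 0.0134), came next, so the 6 largest decreases were all in large-subunit genes, and in each the ICM libraries lay below both WT libraries. RPS20 (-1.09) had the largest decrease in the small subunit, and RPS6 was called at -0.58 (SE 0.18, adjusted p 0.036), from 1226 and 1099 CPM to 922.9 and 843.5 CPM. RPS27A, which is made as a fusion with ubiquitin, was called at -0.73 (adjusted p 0.021).

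The 4 members called higher were RPS26, RPL7L1, RPS10 and RPL17. RPS26, of the mRNA exit channel, measured 237.1 and 199.3 CPM in WT against 461.9 and 467.3 CPM in ICM 3 and 4 (log2 fold change 0.90, SE 0.17, edgeR adjusted p 0.00656). The call did not hold without WT 2 (0.75) or in the fit of all 14 libraries (0.85). RPL7L1, a relative of RPL7 that acts in ribosome assembly, measured 182.8 and 170.1 CPM in WT against 446.5 and 424.2 CPM (1.12, SE 0.16, adjusted p 0.00261), and was not called in the fit of all 14 libraries (1.06).
The other pair, of the small and the large subunit, rests on few counts. RPS10 had 8 and 6 counts in WT and 106 and 73 in ICM 3 and 4 (log2 fold change 3.98, SE 0.50, adjusted p 0.00182), and RPL17 had 35 and 51 counts in WT and 152 and 113 in ICM 3 and 4 (1.96, SE 0.37, adjusted p 0.00694). Both are known as highly expressed genes, and both share exons on the same strand with an annotated read-through gene, RPS10-NUDT3 over 39.4% and RPL17-C18orf32 over 24.8% of their exonic bases. Those read-through genes were listed at 0 in every library, so the values of RPS10 and RPL17 are uncertain. RPS10 held 0.1616 to 0.2429 CPM in the untreated libraries and reached the mean level of 1 CPM only through the treated ones (0.922 to 5.373 CPM). RPL17 held 0.6315 to 1.399 CPM in the untreated libraries, near that level, and 2.746 to 9.115 CPM in the treated ones. Their calls are therefore no support for a rise within the family.

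**Figure D3:**
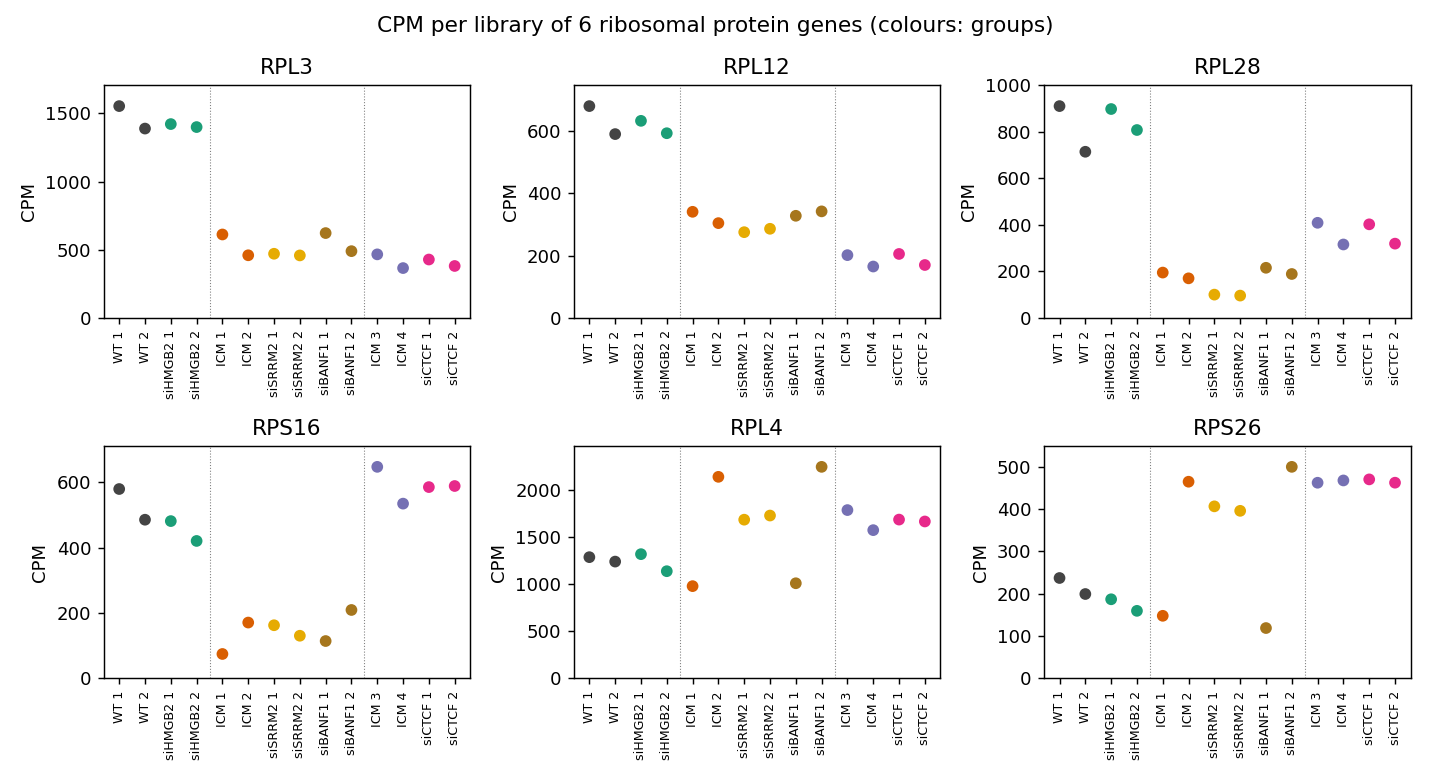
CPM of 6 ribosomal protein genes in each of the 14 libraries, coloured by group; dotted lines separate the untreated libraries, the first ICM set and the second. RPL3 and RPL12 are lower in all treated libraries, RPL28 and RPS16 are lowest in the first set, and RPL4 and RPS26 are higher in treated libraries other than ICM 1 and siBANF1 1.

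A larger number of members did not pass the test in ICM 3-4 vs WT. RPL5 measured 701.2 and 649.1 CPM in WT against 662.9 and 562.7 CPM in the treated pair (log2 fold change -0.32, adjusted p 0.182), and RPL11 measured 797.8 and 664.3 CPM against 616.5 and 547.2 CPM (-0.51, adjusted p 0.0619). The stalk genes had log2 fold changes of -0.49 (RPLP0, adjusted p 0.172), -0.44 (RPLP1, 0.186) and -0.55 (RPLP2, 0.0817), and RPSA, also known as a laminin receptor, had -0.40 (0.277). RPL4, at the wall of the exit tunnel, measured 1288 and 1241 CPM in WT against 1788 and 1575 CPM, with no overlap but no call (0.23, SE 0.18, adjusted p 0.328). RPS16, the lowest gene of the first set, measured 647.2 and 534.7 CPM here, 1 library above and 1 within the WT range (-0.03, adjusted p 0.9).

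The direct contrast of the 2 treated sets carries the same treatment label on both sides. Members differed little in the median (log2 fold change 0.03 in ICM 3-4 relative to ICM 1-2, all genes -0.08), and none was called, against 0.84% of 16195 genes (0.333% higher and 0.506% lower). At an unadjusted p under 0.05, 2 members stood out compared with 24.6% of all genes, and DESeq2 called 1, beside 14.1% of all genes. The 2 were RPS16, higher in the second set by 2.15 (SE 0.51, edgeR adjusted p 0.0779), and RPLP1, higher by 1.14 (SE 0.45, adjusted p 0.185). The groups did not overlap in 14 members, 11 higher and 3 lower in the second set, compared with 31.9% and 24.9% of all genes. RPL12 had the lowest value, -0.99 (SE 0.42, adjusted p 0.21).

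**Figure D4:**
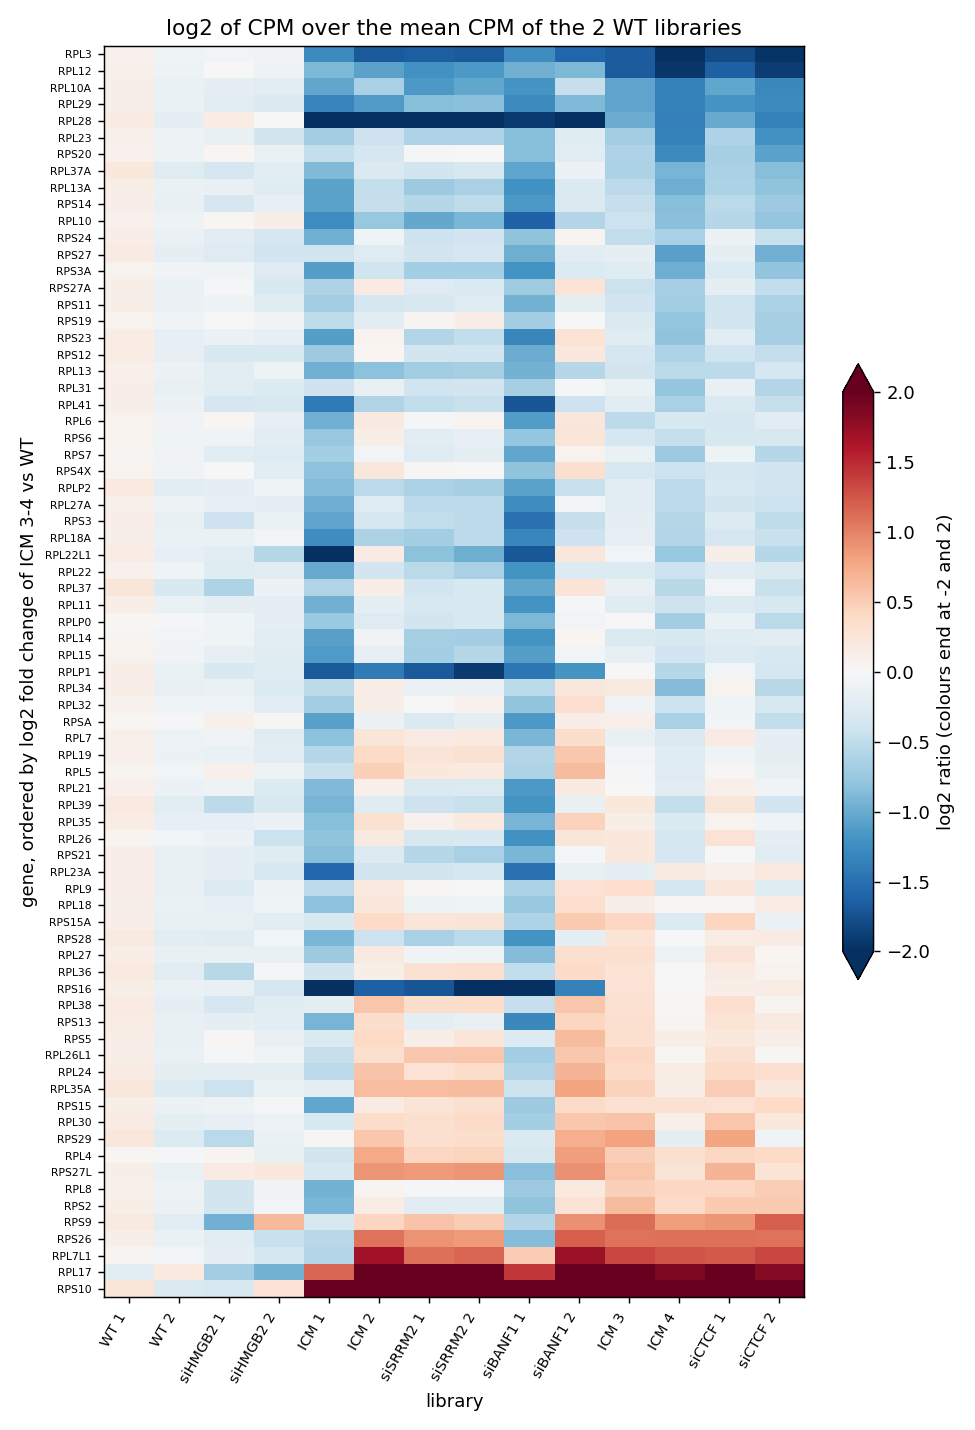
Log2 of each member's CPM in a library over its mean CPM in the 2 WT libraries (columns, 14 libraries; rows, 75 of the 76 genes, ordered by log2 fold change of ICM 3-4 vs WT; colours end at -2 and 2). Most rows are bluer in ICM 1 and siBANF1 1 than in ICM 2 and siBANF1 2. RPL28, RPS16 and RPLP1 are among the rows that are blue in all 6 libraries of the first treated set.

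Expressing each gene as a share of all member counts removes the level of the family from the comparison. RPL3 made up 2.959% and 3.089% of member counts in WT, 3.211% and 3.243% in siHMGB2, 2.275% in ICM 1 and 2.495% in siBANF1 1. In the other 8 treated libraries it made up 0.9839% to 1.2%. RPL12 showed the same order, with 1.295% and 1.313% in WT, 1.267% in ICM 1, 1.315% in siBANF1 1, and 0.4411% to 0.7135% in the other treated libraries. On this scale ICM 1 and siBANF1 1 stood with WT for RPL12, whereas in CPM they stood with the treated libraries. RPS26 went the opposite way, from 0.4512% and 0.4434% in WT, 0.5503% in ICM 1 and 0.4776% in siBANF1 1 to 0.9874% to 1.318% in the other treated libraries.

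The shares of RPS16 and RPLP1 were divided by set. RPS16 made up 1.103% and 1.08% of member counts in WT, 0.2788% to 0.4596% in the 6 treated libraries of the first set, and 1.347% to 1.532% in the 4 of the second. RPLP1 made up 1.541% and 1.498% in WT, 0.4896% to 1.089% in the first treated set and 1.414% to 1.662% in the second. For both genes every treated library of the first set lay below WT, whereas the second set lay above WT for RPS16 and around it for RPLP1. RPL28 was lower than WT in both sets, and the sets overlapped, at 1.733% and 1.589% in WT, 0.2377% to 0.8626% in the first treated set and 0.8296% to 0.9251% in the second. The first treated set is also the one with 3.232% to 6.124% of counts in small RNA genes, and the part of that difference in these values was not tested.

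The likeness of the members was described over the 14 libraries by Pearson's r between the log2 CPM of a gene and the median profile of the family, to which each gene itself contributes. These log2 CPM were scaled by TMM and had a small prior count added, unlike the CPM above. The median r was 0.829, and 53 of 76 members had an r over 0.7. The least like were RPS10 (-0.29), RPL17 (-0.28), RPL7L1 (0.07), RPS9 (0.21) and RPS26 (0.31). Of these, RPS10, RPL17 and RPS9 rest on few counts, so their r is uncertain. The points share their libraries and depth, and ICM 1 and siBANF1 1 lie low in most members. Members with a pyrimidine start as defined above had a median log2 fold change of -0.53 in ICM 3-4 vs WT (39 genes), and the 23 with a window but no such start had -0.33. In ICM 1-2 vs WT the values were -0.54 and -0.29. This division rests on the annotated start base. Searched within 5 bases of that base, the pattern was present in 47 of 62 members (75.8%) and in 21.1% of all windows. Members hosting a snoRNA had -0.54 in ICM 3-4 vs WT (27 genes) and the others -0.40, and in ICM 1-2 vs WT they had -0.60 and -0.34. Both comparisons share the WT libraries, and these medians are descriptions with no test.

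Counts of 4 paralogs were set against those of the parent gene, as a description with no test. RPS27L, a relative of RPS27 that p53 induces, had 22.9% and 24.16% of the RPS27 counts in WT and 31.58% and 35.71% in siHMGB2. It had 24.9% in ICM 1 and 51.33% in ICM 2, 54.9% and 54.49% in the libraries labelled siSRRM2, 25.65% and 51.27% in those labelled siBANF1, 39.26% and 59.63% in ICM 3 and 4, and 43.17% and 55.33% in siCTCF. The 8 treated libraries other than ICM 1 and siBANF1 1 were all above the 4 untreated ones. In CPM, RPS27L was not called in ICM 3-4 vs WT (log2 fold change 0.23, adjusted p 0.344), while RPS27 was at -0.74 (adjusted p 0.107). RPL7L1 had 17.98% to 20.09% of the RPL7 counts in the untreated libraries, 22.86% in ICM 1 and 37.21% to 56.74% in the other 9 treated libraries, siBANF1 1 included. RPL22L1 had 7.385% to 9.785% of the RPL22 counts in the untreated libraries and 4.383% to 13.65% in the treated ones, and RPL26L1 had 3.911% to 5.212% of the RPL26 counts against 4.163% to 7.477%. For RPL22L1 and RPL26L1 the treated and untreated libraries overlapped.

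**Figure D5:**
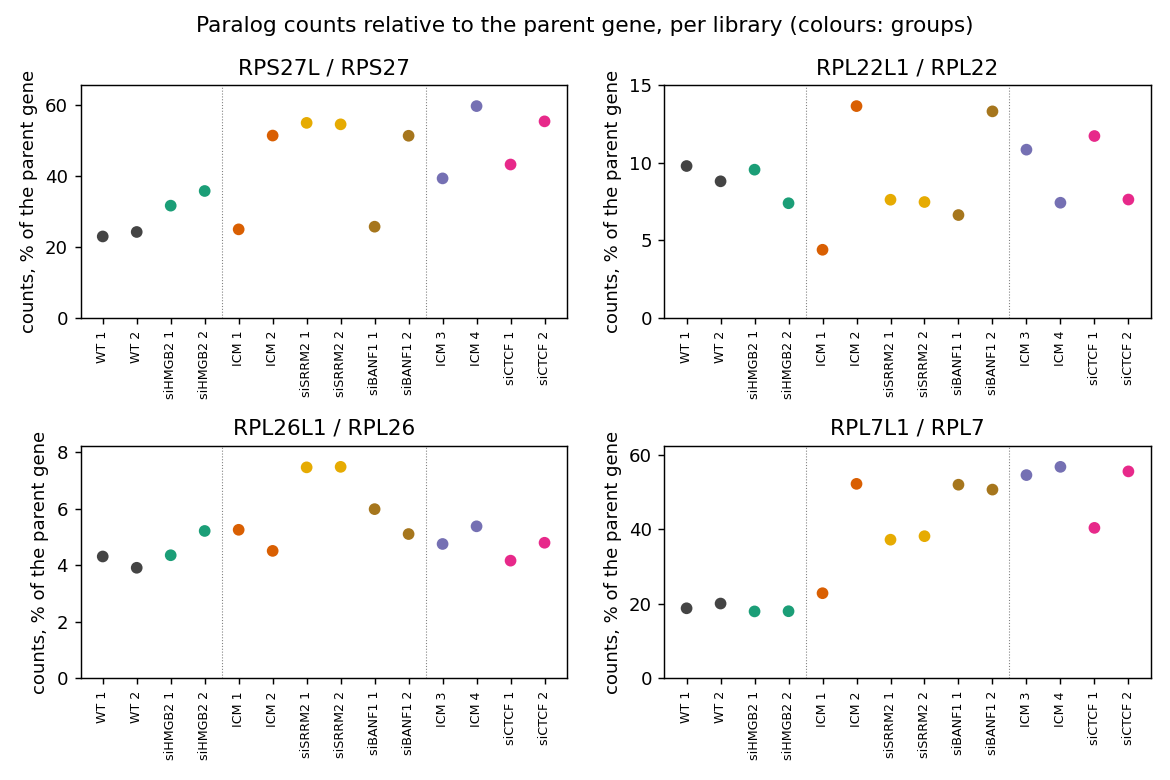
Counts of 4 paralogs as a percentage of the counts of the parent gene in each of the 14 libraries, coloured by group; dotted lines separate the untreated libraries, the first ICM set and the second. RPS27L and RPL7L1 lie higher in most treated libraries than in the 4 untreated ones, except ICM 1 for both and siBANF1 1 for RPS27L, while RPL22L1 and RPL26L1 overlap.

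siHMGB2 against WT tests the loss of HMGB2 without ICM. The filter on low counts kept 75 members, without RPS10, and their median log2 fold change was -0.11 (all genes 0.00). None was called by edgeR or DESeq2, whereas edgeR called 10.9% of 15338 genes (6.14% higher and 4.74% lower), and 1 member had an unadjusted p under 0.05, compared with 23.9% of all genes. RPL39, of the exit tunnel, was that member, with 301.4 and 227.8 CPM in WT against 184.0 and 214.1 CPM in siHMGB2 (-0.35, SE 0.16, adjusted p 0.204). In 32 members both siHMGB2 libraries lay below both WT libraries (42.7%, all genes 32.5%), and in 1 member, RPS27L, both lay above (all genes 22.0%). The median rested on WT 1, the library with the highest share of member counts: it was 0.02 without WT 1 and -0.25 without WT 2.

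The libraries labelled siSRRM2 were compared with ICM 1 and 2. The median log2 fold change was 0.13 over the members and -0.07 over all 16828 genes, with 59 of 76 members positive. No member was called by edgeR or DESeq2 (0.0% of genes by edgeR), and 1 had an unadjusted p under 0.05, compared with 8.84% of all genes. That member was RPL28, with 194.3 and 169.5 CPM in the ICM pair against 99.4 and 95.24 CPM (-0.93, SE 0.25, adjusted p 0.551), its lowest values of the 14 libraries. The pair labelled siSRRM2 agreed closely, with a median ratio of 1.018, and lay above both ICM libraries in 11 members and below both in 3 (22.2% and 20.8% of all genes). The median turned with the control: it was -0.13 with 53 members called without ICM 1 (69.7%, all genes 59.1%), and 0.50 with 72 called without ICM 2 (94.7%, all genes 67.8%), where the lone ICM library is assumed to vary like the siSRRM2 pair. With ICM 3-4 as controls 13 members were called, 7 higher and 6 lower (17.1%), below the 49.6% of all genes.

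The libraries labelled siBANF1 differed from each other by a median ratio of 2.06 over the members, with 74 of 76 higher in siBANF1 2. Against ICM 1 and 2 the median log2 fold change was 0.05 (all 17616 genes 0.01). No member was called by edgeR or DESeq2 (0.0% of genes by edgeR), none had an unadjusted p under 0.05 (0.136% of all genes), and in none did the groups lie apart (5.94% of genes higher and 7.86% lower). Set against the ICM library of the same number, siBANF1 1 was lower than ICM 1 in 56 of 76 members (median log2 ratio -0.13) and siBANF1 2 was higher than ICM 2 in 75 (0.15). RPL7L1 had the largest ratio of siBANF1 1 over ICM 1, with 249.9 against 117.2 CPM. The median was -0.48 without siBANF1 2, -0.23 without ICM 1 and 0.46 without siBANF1 1.

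siCTCF was compared with ICM 3 and 4. The median log2 fold change was 0.04 over the members (all 14704 genes 0.00), and no member was called by edgeR or DESeq2 or had an unadjusted p under 0.05 (0.0% and 0.122% of genes). In 3 members both siCTCF libraries lay above both ICM libraries (6.69% of genes), and in none below (9.13%). The largest value was that of RPS24, with 463.4 and 415.5 CPM in the ICM pair against 599.7 and 476.5 CPM in siCTCF (0.31, SE 0.20, adjusted p 1.0). ICM 4 was below ICM 3 in 73 of 76 members. Without ICM 4 the median was -0.15 and without siCTCF 1 it was -0.13.

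Other genes of the ribosome pathway were taken from lists chosen with earlier results of these data known. Of 23 other TOP mRNAs tested in ICM 3-4 vs WT, 10 were called lower and 1 higher, beside 27.3% and 27.8% of all genes, with a median log2 fold change of -0.40. EEF1A1, the elongation factor that brings aminoacyl-tRNA to the ribosome, fell from 11650 and 11460 CPM in WT to 2055 and 1712 CPM in ICM 3 and 4 (-2.80, SE 0.23, edgeR adjusted p 0.000631). It was 6053 and 3545 CPM in ICM 1 and 2. EEF2, the translocase, was called lower at -0.92 (adjusted p 0.00877) and TPT1 at -1.33 (adjusted p 0.0106). FAU, which encodes small-subunit protein eS30 fused to a ubiquitin-like domain, was the 1 called higher (1.14, adjusted p 0.00325). NPM1, a nucleolar chaperone of ribosome assembly, was not called (-0.36, adjusted p 0.12).

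The factors that assemble ribosomes moved the other way in that comparison. Of 59 tested, 39 were called higher and 0 lower, with a median log2 fold change of 0.95, beside 27.8% and 27.3% of all genes. RRN3, which brings RNA polymerase I to rDNA, had the largest value, from 0.9535 and 0.2195 CPM in WT to 17.4 and 23.41 CPM in ICM 3 and 4 (4.94, SE 0.61, adjusted p 0.00172). RRN3 stood at 0.6463 and 0.1943 CPM in siHMGB2 and at 0.5842 to 2.119 CPM in the treated libraries of the first set. These values lay below all 4 libraries of the second set. The fold change of RRN3 thus rests on WT values near the floor, and treatment and set cannot be told apart for it. In ICM 1-2 vs WT none of the 59 was called (0.0% of all genes), with a median of 0.52. Both ICM libraries lay above both WT libraries in only 6 of the 59 and below both in 5, beside 29.6% and 27.6% of all genes. In the rest ICM 1 and 2 did not lie together on 1 side of WT, so this median does not describe both libraries. In siHMGB2 vs WT 3 of the 59 were called lower and 0 higher, beside 4.74% and 6.14% of all genes. The lowest of these 3 was LTV1 (-0.68, edgeR adjusted p 0.00711). Of 76 genes of mitochondrial ribosomal proteins tested in ICM 3-4 vs WT, 46 were called higher and 3 lower (median 0.79), beside 27.8% and 27.3% of all genes. The mRNAs of the mitochondrial and of the cytosolic ribosomal proteins thus had medians of opposite sign.

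Of 16 regulators of ribosomal protein synthesis, 5 were called higher and 2 lower in ICM 3-4 vs WT, beside 27.8% and 27.3% of all genes. LARP1, which binds the TOP motif and represses translation of these mRNAs, rose from 199.6 and 201.0 CPM in WT to 534.8 and 620.3 CPM in ICM 3 and 4 (log2 fold change 1.34, SE 0.16, edgeR adjusted p 0.00151). In the first treated set LARP1 held 207.0 and 251.8 CPM in ICM 1 and 2. It held 128.4 and 121.0 CPM under the siSRRM2 label and 355.5 and 237.3 CPM under the siBANF1 label. Treatment and set cannot be told apart for this rise. EIF4G1, a scaffold of cap-dependent initiation, rose by 1.63 (edgeR adjusted p 0.00106), and EIF4EBP1, the mTOR-controlled inhibitor of eIF4E, fell by 0.93 (edgeR adjusted p 0.0226). ICM 1 and 2 lay on opposite sides of WT for both. EIF4G1 held 279.0 and 972.2 CPM there against 467.1 and 476.9 CPM in WT, and EIF4EBP1 held 33.15 and 20.47 CPM against 27.74 and 28.75 CPM. In siHMGB2 vs WT, EIF4EBP1 was instead called higher, at 38.16 and 62.86 CPM against 27.74 and 28.75 CPM (0.91, SE 0.19, adjusted p 0.00772). MYC, a transcription factor that drives ribosomal protein genes, was not called in ICM 3-4 vs WT (0.02, adjusted p 0.919). Of 13 noncoding hosts of snoRNAs, 6 were called higher and 3 lower against the same shares, with SNHG15 highest at 2.04 (adjusted p 0.00244) and SNHG3 lowest at -1.12 (adjusted p 0.0196). GAS5, a host gene whose RNA also carries a TOP motif, was called at 1.89 (adjusted p 0.0012).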

How the data were processed

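Per the submitters' processing notes, STAR 2.7.3a, HTSeq 0.12.4, DESeq2 1.36.0 and build hg38 were used, in no stated role or order. The annotation release and strand setting are not given in the sources used here. The authors deposited 1 table per library of whole-number read counts per gene symbol, not normalized and not pooled. Its 5 lines for reads given to no gene were left out. They held 12.75% to 41.78% of a library's reads.

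The members, gene lists and tests were chosen with earlier results of these data known. Each comparison was fitted to its 4 libraries with the quasi-likelihood test of edgeR 4.0.16 in R 4.3.3, with TMM scaling, filterByExpr and Benjamini-Hochberg adjustment over all genes tested, and called at an adjusted p under 0.05. SE is that of the log2 fold change. The fit was tested on simulated data. CPM used total gene counts. The likeness and the correlation of deviations used log2 CPM with TMM scaling and a small prior count. Genes were named by a rule that took the largest changes among called members (4 a direction, or the 3 highest and lowest where under 4 were called), paralogs with their parents, stalk and MDM2-binding members, RPS6, RPSA and RPS27A, extremes of level and of likeness, the targeted genes, the largest called changes per list, and fixed pathway genes such as EEF1A1, EEF2, FAU, TPT1, NPM1, MYC, LARP1 and EIF4EBP1. RPL4, RPL41, GAS5, the core genes listed near 0 and the pseudogenes fall outside the rule and were chosen after their values were seen. Some genes are counted but not reported here by name.

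Alternatives were RLE or total-count scaling, no filter, DESeq2 1.42.0, all 14 libraries in 1 fit, protein-coding genes only, a replicate block, other controls and leaving out each library. Positions and exon overlaps came from GENCODE v29 and start windows from RefSeq (GRCh38.p14). Tables and plots were made in Python 3.11.15 (pandas 2.3.3, matplotlib 3.10.9).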

Additional observations from a re-analysis of the deposited data

How the results depend on the processing

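Counts are of members called, medians are of their log2 fold changes, and the cause of a change was not tested unless named. In ICM 1-2 vs WT, where none was called, 6 were called with no filter, 7 by DESeq2, 12 in the fit of all 14 libraries (8.88%, 11.5% and 13.5% of all genes), and 0 to 63 when each library was left out (1.71% to 62.1% of genes; median -0.78 to -0.12). In ICM 3-4 vs WT the 27 calls became 11 in the fit of all 14 libraries (30.3% of genes) and 10 to 56 without single libraries (28.8% to 63.2%; median -0.71 to -0.23). In ICM 3-4 vs ICM 1-2, with 0 calls, there was 1 with no filter (median -0.006), 1 by DESeq2, 4 in the fit of all 14 libraries (9.61%, 14.1% and 19.5% of genes) and 0 to 10 without single libraries (1.94% to 38.9%; median -0.22 to 0.35, negative without ICM 1 or ICM 3). In siSRRM2 vs ICM 1-2, 13 were called with ICM 3-4 as controls (49.6% of genes) and 0 to 72 without single libraries (0.0108% to 67.8%; median -0.13 to 0.50). Medians without single libraries were -0.251 to 0.016 in siHMGB2 vs WT, -0.48 to 0.46 in siBANF1 vs ICM 1-2 and -0.15 to 0.25 in siCTCF vs ICM 3-4, with 0 calls in each. Where a fit leaves 1 library in an arm, that library is assumed to vary like the other group. RPL3, RPL12, RPL10A, RPL29, RPS10 and RPL17 kept direction and call in ICM 3-4 vs WT under every setting run, and the exceptions were RPL7L1 (1.06) and RPS26 (0.85) in the fit of all 14 libraries and RPS26 without WT 2 (0.75). RPS10 and RPL17 are members mainly through the treated libraries, as given above. The share of counts in members became 4.463% in siHMGB2 and 4.28% in siSRRM2 over protein-coding genes, and 4.608% and 4.292% over those without mitochondrial and histone genes. The median of the large minus that of the small subunit was -0.088 in ICM 1-2 vs WT without paralogs and 0.001 in siBANF1 vs ICM 1-2 with total-count scaling, where its sign turned. In ICM 3-4 vs WT this difference stayed positive (0.102 to 0.109).

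With a replicate block on the numbers in the titles (for siCTCF, whose titles share none with ICM 3-4, on those in the submitters' names of the deposited tables), 2 members were called in ICM 1-2 vs WT and 2 with crossed numbers (7.12% and 6.45% of genes), a setting added after the data were seen. The block changed no other count of members called by over 1.5 times. The 2 pairs of a comparison are too few to show pairing. The correlation of deviations over 13123 genes was 0.20 for siHMGB2 and WT, -0.15 for ICM 1-2 and WT, 0.03 for siSRRM2, 0.85 for siBANF1 and 0.74 for siCTCF with their ICM libraries. In comparisons that use ICM 1 and 2, their difference (median ratio 1.669 over the members) enters the spread against which a change is tested. The part of this difference in the lack of calls was not tested.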

Other observations

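Ribosomal proteins have many processed pseudogenes, and 1955 such symbols are listed beside the members. Their counts equalled 1.036% to 1.391% of the member counts in the 4 untreated libraries, 1.486% to 2.351% in the 6 treated libraries of the first set, and 3.588% to 3.997% in the 4 of the second set. Single pseudogenes did not move alike. RPL41P1 held 57.54 to 94.1 CPM in the untreated libraries and 1.268 to 15.73 CPM in the treated ones, whereas its parent RPL41 held 338.8 to 462.4 CPM and 130.6 to 368.6 CPM. RPL23AP42 held 2.716 to 8.164 CPM in the untreated libraries, 3.271 to 8.995 CPM in the first treated set and 44.17 to 56.13 CPM in the second. RPLP0P6 likewise held 2.497 to 7.181 CPM, 5.669 to 11.14 CPM and 30.4 to 52.66 CPM. Reads of a parent and its near-identical copies can be exchanged in counting, so the values of members with many copies, such as RPS26 with 58 and RPL12 with 49 pseudogene symbols, are uncertain to that extent, and the part of this in the fold changes was not tested.

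Of the core genes listed near 0, RPS18 had 0 counts in the 4 untreated libraries, 15 to 63 in the treated libraries of the first set and 1 to 3 in the second, and RPL7A had 21 counts in all. RPS9 lies just inside the level with 18 to 104 counts per library.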
